A study of Mus musculus with 2 samples.

Results

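CD4 T cells of mouse liver with no captured transcript of the chemokine receptor Cxcr6 were described. They were single nonparenchymal cells from mice with diet-induced nonalcoholic steatohepatitis (NASH) and from control mice. A cell was a member when it had at least 500 unique molecular identifiers (UMIs, each standing for 1 captured mRNA molecule) and 200 genes, at least 1 UMI of the CD3 chain genes Cd3d, Cd3e and Cd3g together, at least 1 UMI of Cd4, none of Cd8a, Cd8b1, Cxcr6 or the B cell gene Cd79a, and no more than 3 UMIs of the Kupffer cell genes Clec4f and Cd5l together. The rule was met by 27 of 3710 kept cells of the NASH library and 76 of 4209 kept cells of the control library, 103 of 7919 in all. The cells were thus chosen by their measured UMIs of the genes in the rule, which are given as a description only.

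The NASH mice were male C57BL/6 animals fed a diet deficient in methionine and choline (MCD) for 6 weeks from 8 weeks of age, and the control mice were male C57BL/6 animals of the same age on a standard low-fat diet for the same time. MCD feeding removes nutrients needed for lipoprotein export from the liver and is a dietary model of steatohepatitis. Cells of 3 mice per diet were pooled and captured as 1 library on a BD Rhapsody cartridge after enzymatic digestion of the tissue. With 1 pooled library per diet the difference between diets cannot be told apart from a difference between pools or libraries, so no test between diets was possible. The intervals given are 95% intervals of the counting error only, and UMIs of 1 gene cluster in few cells, which the intervals do not cover.

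CD4 T cells recognise peptides on MHC class II molecules through the T cell receptor, with CD4 as the coreceptor that brings the kinase Lck to the complex. Naive and central memory cells recirculate between blood and lymphoid organs and use Ccr7, Il7r and the transcription factors Lef1 and Klf2. Effector cells leave this route and take up helper programmes, regulatory T cells are directed by Foxp3, and Cxcr6 is a receptor of lymphocytes that stay in the liver sinusoids.

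Members made up 0.728% of the kept NASH cells (exact binomial interval 0.480 to 1.06%) and 1.81% of the kept control cells (1.43 to 2.25%). Among cells with a CD3 UMI they were 6.03% in NASH (4.01 to 8.65%) and 11.1% in control (8.88 to 13.7%). A further 43 NASH and 82 control cells met the rule except that they had Cxcr6, so the cells without Cxcr6 were 38.6% of CD4 T cells in NASH (27.2 to 51.0%) and 48.1% in control (40.1 to 56.2%). The share was thus lower in NASH over all kept cells and over CD3-positive cells beyond counting error, while the intervals of the share among CD4 T cells overlapped. Shares of captured cells depend on what the digestion and the pool contained, and fewer CD4 T cells and more cells of other kinds cannot be told apart.

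The gate was shallow for many members. Of the members, 16 in NASH and 39 in control had exactly 1 Cd4 UMI, and 89 NASH and 107 control cells lay just outside because they had CD3 but no UMI of Cd4, Cd8 or Cxcr6. Just outside the Cxcr6 limit lay 14 NASH and 14 control cells with 1 Cxcr6 UMI. Some members may thus have had Cxcr6 transcripts that were not captured. CD3 was at 1 UMI in 2 NASH and 20 control members, with medians of 4 UMIs in both libraries. Of cells that met the rest of the rule, 0 NASH and 3 control cells were outside for Cd79a, with 3 or more UMIs each, and 1 cell of each library for Clec4f and Cd5l, with 6 or more. The highest sum of these inside the limit was 2 UMIs in 1 NASH cell and 3 in 1 control cell. When Cd4 had to reach 2 UMIs, 11 NASH and 37 control cells remained.

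The label was checked against its markers. Cd4 and CD3 were present by construction, with up to 9 Cd4 UMIs in a NASH cell and 6 in a control cell. Lef1, which the rule did not use, had a UMI in 9 of 27 NASH members and 32 of 76 control members. Cd40lg, the ligand by which helper T cells license B cells and dendritic cells, had 12 UMIs in 8 NASH members and 15 UMIs in 11 control members, whereas the CD8 T cells without Cxcr6, which had been chosen in the same way with Cd8a or Cd8b1 in place of Cd4, held none (79 NASH and 117 control cells). The 4 gamma delta T cell markers with a column together had 1 UMI in NASH and 0 in control. The cells are named by the rule and not by clustering.

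The libraries held 3893 NASH and 4336 control cells with 9326723 and 11452972 UMIs, and 95.3% of the NASH and 97.1% of the control cells were kept. Members had 39520 UMIs in NASH and 147959 in control. A member had a median of 1362 UMIs in NASH (501 to 3685) and 1437 in control (597 to 12230), with median gene numbers of 812 in NASH and 864 in control. The tables share 21 cell labels, none of them a member in either library. Genes are listed alphabetically only as far as Rad54l2, so Tcf7, S1pr1, Tbx21 and Tnf were not analysed here. Immunoglobulin RNA was unequal across all cells. Igkc, a light chain of B cells and plasma cells that T cells do not make, had a UMI in 3 of 27 NASH and 64 of 76 control members, with log2 ratios of -4.05 in the members and -3.51 in all other kept cells. Cells in the B cell gate were 5.23% of the kept NASH cells and 16.2% of the kept control cells.

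A few members carried RNA of other cell types, and they were set apart. In NASH, 1 cell with 3685 UMIs held 142 UMIs of the Kupffer cell and macrophage list, 246 of the B cell list and 306 of MHC class II genes, while the next highest macrophage sum of a NASH member was 3. In control, 3 cells held 169, 52 and 27 UMIs of the endothelial list. The macrophage list summed to 4251 CPM (UMIs scaled to a total of 1000000) in NASH and 406 CPM in control, the B cell and plasma cell list to 7465 CPM in NASH and 2866 CPM in control, and the endothelial list to 1341 CPM in NASH and 2278 CPM in control. In the 25 NASH and 62 control members that remained without these cells and those with Mki67, the macrophage list summed to 759 CPM in NASH and 410 CPM in control. The B cell and plasma cell list was then lower in NASH, at 1367 CPM against 2715 CPM in control, and the endothelial list higher in NASH, at 1306 CPM against 742 CPM in control. The part of this RNA in the results was not tested. The NK cell, ILC1 and NKT cell list summed to 1417 CPM in NASH and 1014 CPM in control (log2 ratio 0.49, 0.01 to 0.93). A UMI of this list was present in 12 of 27 NASH and 32 of 76 control members. The most in 1 cell was 25 UMIs in NASH and 27 in control. Without the cells set apart the list was at 1336 CPM in NASH and 1296 CPM in control. Ncr1 had 0 UMIs in NASH and 2 in control. NKT cells among the members were not told apart. The monocyte list had 74 UMIs in NASH, of which 45 lay in 1 cell, and 91 in control. The hepatocyte list had 103 UMIs in NASH, of which 84 lay in 1 cell, and 44 in control. The neutrophil, dendritic cell, stellate cell, cholangiocyte and erythroid lists had 8 or fewer UMIs in NASH and 28 or fewer in control.

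Cycling cells were the other group that stood apart. Mki67, a proliferation marker, had a UMI in 1 NASH and 11 control members, and these held 7.36% of the NASH members' and 32.9% of the control members' UMIs. Of the 11 control cells 6 also had Foxp3. The deepest, with 12230 UMIs, held 349 UMIs of cell cycle genes. Counts and main results are therefore also given without the cells of other types and without the Mki67 cells, which left 25 NASH and 62 control cells with median depths of 1328 and 1342 UMIs. Both sets of cells were picked after their values were seen.

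**Figure D1:**
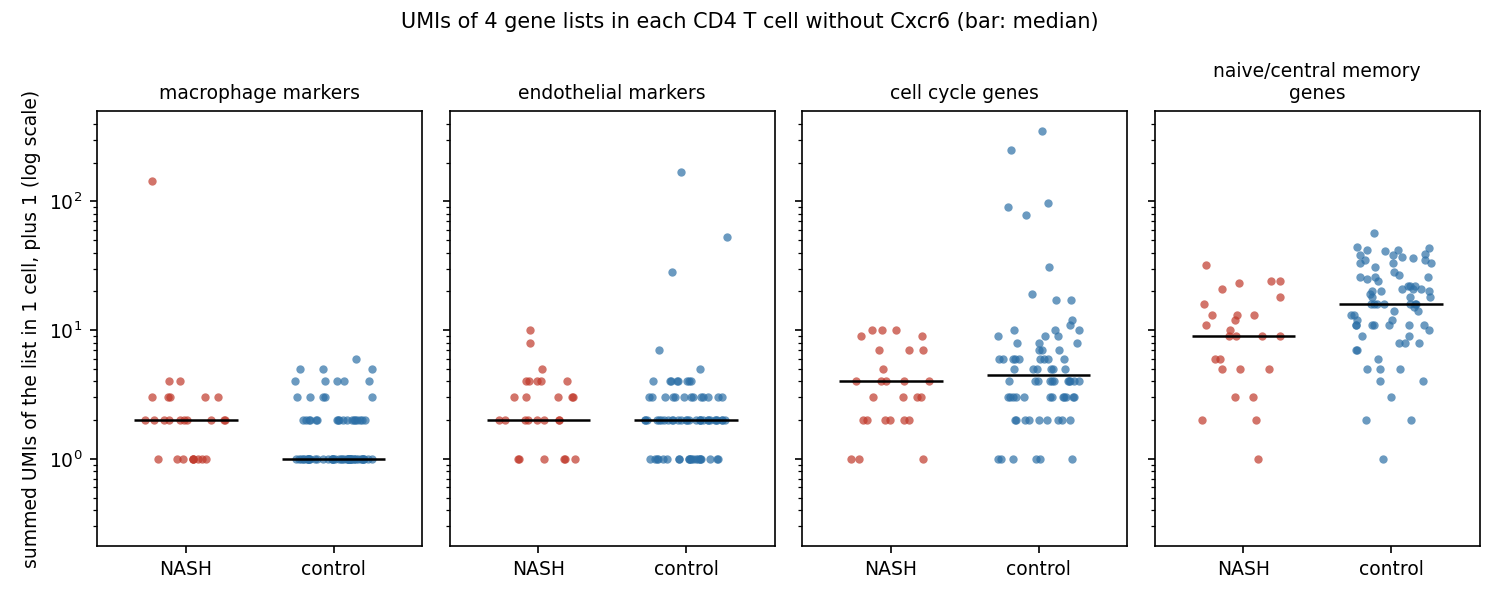
Each point is 1 CD4 T cell without Cxcr6 and gives its summed UMIs of a gene list plus 1, on a log scale, for 27 NASH and 76 control cells, with a bar at the median. The single NASH cell at 142 macrophage UMIs, the control cells at 169, 52 and 27 endothelial UMIs and the control cells with up to 349 cell cycle UMIs lie away from the rest, and the naive and central memory sums have a median of 8 UMIs in NASH and 15 in control.

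For each gene the members' UMIs were summed in each library, 0.5 was added, and the sums were scaled to the members' totals. The log2 ratio of NASH over control was taken for the 1394 genes with at least 30 UMIs in both libraries together. At least 1.5 times higher in NASH were 235 genes (16.9%) and at least 1.5 times lower 239 (17.1%), and the median log2 ratio was -0.03. The counting interval lay above equal levels for 102 genes (7.32%) and below for 94 (6.74%). Without the cells set apart, 863 genes were measured, of which 126 (14.6%) were at least 1.5 times higher in NASH and 114 (13.2%) lower, and the counting interval lay above equal levels for 6.03% and below for 4.52%. Leaving out only the cells of other types, those shares were 6.83% above and 5.90% below, and leaving out only the Mki67 cells they were 7.31% above and 6.59% below. These shares are the background for every list described next, since the lists are described by counts and medians and not tested.

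Genes of naive and central memory T cells were lower in NASH. The 17 listed genes with a column had 277 UMIs in NASH and 1410 in control, or 7009 CPM in NASH (6208 to 7885) and 9530 CPM in control (9039 to 10040). Of the 16 with 30 UMIs or more, 5 were at least 1.5 times lower in NASH and none was higher, with a median log2 ratio of -0.42. Without the cells set apart, 6 of 14 were lower, none higher, and the median was -0.52. In the 11 NASH and 37 control cells with 2 or more Cd4 UMIs the median turned to 0.51, so the direction depends on the Cd4 minimum.

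Il7r, the receptor chain for the survival cytokine interleukin-7 (chr15:9505788-9530176 in GRCm38), had per cell a lowest, median and highest value of 0, 1 and 9 UMIs in NASH and 0, 3 and 15 in control. Its level was 1139 CPM in NASH (831 to 1524) and 1805 CPM in control (1595 to 2034), a log2 ratio of -0.65 (-1.15 to -0.20). The ratio was -0.96 without the cells set apart and 0.78 with 2 or more Cd4 UMIs. Both libraries contained members without an Il7r UMI, so the per-cell values overlapped. A UMI was present in 14 of 27 NASH and 55 of 76 control members, and in 40.7% of NASH and 55.3% of control members after every cell was thinned to 500 UMIs. The intervals at 500 UMIs, 22.4 to 61.2% in NASH and 43.4 to 66.7% in control, overlapped. Of B cells 0.515% in NASH and 0.146% in control had an Il7r UMI.

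Dgka, a diacylglycerol kinase that damps T cell receptor signals, had 39 UMIs in 20 NASH cells and 219 UMIs in 64 control cells, a log2 ratio of -0.57 (-1.12 to -0.09) and of -0.84 without the cells set apart. Bach2, a repressor that keeps lymphocytes from effector differentiation, had 1 UMI in NASH and 35 UMIs in 16 control cells, a log2 ratio of -2.66 (-8.57 to -0.65). For both genes the counting interval lay below equal levels, and for Dgka too the sign changed, to 0.43, with 2 or more Cd4 UMIs. Lef1 had 15 UMIs in NASH and 76 in control (-0.40, -1.34 to 0.37). Ccr7, the receptor for lymph node entry, had 3 UMIs in 2 NASH cells and 27 in 15 control cells (-1.07, -3.63 to 0.43). Nsg2 had 4 UMIs in NASH and 37 in control (-1.15, -3.25 to 0.17). These intervals included equal levels, as did those of Igfbp4 (-0.43), Klf2 (-0.17), Klf3 (-0.60), Cd27 (-0.38) and Actn1 (0.11). With 2 or more Cd4 UMIs Lef1 was at 0.40, Klf2 at 1.19 and Klf3 at 0.60.

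Genes of effector and memory CD4 T cells went both ways. Of 17 measured, 4 were at least 1.5 times higher and 5 lower in NASH, with a median log2 ratio of -0.14, which was 0.01 without the cells set apart. The list summed to 13158 CPM in NASH and 13206 CPM in control.

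Maf, a transcription factor of interleukin-10 producing and follicular helper T cells (chr8:115682942-115707794 in GRCm38), was named after its values were seen. Per cell it had a lowest, median and highest value of 0, 2 and 19 UMIs in NASH and 0, 1 and 20 in control. The level was 2379 CPM in NASH (1922 to 2911) and 1277 CPM in control (1102 to 1473), a log2 ratio of 0.90 (0.52 to 1.26). A UMI was present in 23 of 27 NASH members (85.2%) and 42 of 76 control members (55.3%), and in 63.0% of NASH and 32.9% of control members at 500 UMIs per cell. The intervals at 500 UMIs, 42.4 to 80.6% in NASH and 22.5 to 44.6% in control, overlapped. B cells, with median depths of 1153.5 UMIs in NASH and 1180 in control, had a Maf UMI in 17.5% and 18.0% of cells. The ratio stayed between 0.61 and 1.14 under each alternative run.

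Bhlhe40, a regulator of cytokine production in helper T cells, had 19 UMIs in 10 NASH cells and 18 UMIs in 9 control cells, a log2 ratio of 1.98 (0.97 to 3.00), which was 1.70 without the cells set apart and 0.40 when all CD4 T cells were taken whatever their Cxcr6. Id2, which restrains E proteins in effector lymphocytes, had 91 UMIs in 21 NASH cells and 205 in 52 control cells, a log2 ratio of 0.74 (0.36 to 1.10) and of 0.43 without the cells set apart. In the cells without Cxcr6 both were higher in NASH beyond counting error. On the other side, Crip1 had 15 UMIs in 7 NASH cells and 217 in 38 control cells (-1.91, -2.81 to -1.20), and Lgals1, which encodes galectin-1, had 23 in 8 NASH cells and 209 in 29 control cells (-1.25, -1.97 to -0.65). These moved to -1.04 for Crip1 and -0.34 for Lgals1 without the cells set apart. The most in 1 control cell was 49 UMIs of Crip1 and 35 of Lgals1. Cd44 (0.38), Itgb1 (-0.34), Itga4 (-0.25) and Icos (-0.69) had intervals that included equal levels.

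Genes of Th1 and cytotoxic cells were few. Of 5 measured, 2 were at least 1.5 times higher and 1 lower in NASH, with the counting interval above equal levels for 1 and below for 1. Ccl5, the chemokine of memory and cytotoxic T cells, was the main one: it had 77 UMIs in 8 NASH cells and 432 UMIs in 24 control cells, 1948 CPM in NASH (1538 to 2435) and 2920 CPM in control (2651 to 3208). A single control cell held 199 of the control UMIs. The per-cell median was 0 in both libraries, and the log2 ratio of -0.58 (-0.95 to -0.23) ranged from -0.99 to 0.63 over the alternatives, the last with all CD4 T cells taken whatever their Cxcr6. Nkg7, a granule protein, had 23 UMIs in 7 NASH cells and 93 in 20 control cells (-0.09, -0.84 to 0.56). Ifng, the defining cytokine of Th1 cells, had 5 UMIs in 4 NASH cells and 22 in 11 control cells. Gzmb, a killing protease, had 2 in NASH and 29 in control, of which 8 lay in 1 cell.

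Of 5 regulatory T cell genes measured, 1 was at least 1.5 times higher in NASH and 2 lower, with a median log2 ratio of 0.40. Foxp3 had a UMI in 2 of 27 NASH members (7.41%, 0.910 to 24.3%) and 10 of 76 control members (13.2%, 6.49 to 22.9%). The control cells with Foxp3 were deep, with a median of 3273 UMIs, and at 500 UMIs per cell the shares were 3.70% in NASH and 9.21% in control. Of B cells 0% in NASH and 0.146% in control had a Foxp3 UMI. By level Foxp3 had 5 UMIs in NASH and 64 in control, a log2 ratio of -1.65 (-3.44 to -0.48), which was -0.04 (-1.94 to 1.40) without the cells set apart. Ctla4, an inhibitory receptor of these cells, had 6 UMIs in NASH and 38 in control (-0.66, and 0.40 without the cells set apart). The cells set apart held 6 of the 10 control cells with Foxp3 and 0 of the 2 NASH ones. The values of Foxp3 and Ctla4 without them therefore lack most control cells with Foxp3. Il2ra, the interleukin-2 receptor alpha chain, had 0 UMIs in NASH and 23 in control. With the NASH count set at a floor of 3 UMIs it was 2.05-fold lower in NASH, counting error not included.

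Ikzf2, which encodes Helios, a factor of regulatory and activated T cells, had 29 UMIs in 8 NASH cells and 79 UMIs in 12 control cells, a log2 ratio of 0.47 (-0.21 to 1.09). Both NASH cells with Foxp3 had it, as did 6 of the 25 NASH cells without. In control 8 of 10 cells with Foxp3 and 4 of 66 without had it. The log2 ratio of NASH over control was 2.43 (1.44 to 3.54) without the cells set apart and -0.24 with 2 or more Cd4 UMIs. The first of these values lacks 6 of the 10 control cells with Foxp3, while both NASH cells with Foxp3 remained. Izumo1r, the folate receptor 4 of regulatory and anergic CD4 T cells, had 19 UMIs in NASH and 55 in control (0.40, -0.46 to 1.15).

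The other helper programmes had few UMIs. The 10 Th17 genes with a column summed to 7 UMIs in NASH and 11 in control, with Il17a at 0 in both libraries. Il5 and Il13 of the Th2 programme were at 0 in both and Il4 had 0 UMIs in NASH and 2 in control. Gata3, the Th2 factor that all T cells also need, had 25 UMIs in 12 NASH cells and 68 in 31 control cells (0.48, -0.26 to 1.14). Bcl6, the factor of follicular helper cells, had 2 UMIs in NASH and 0 in control, and Btla had 6 and 28 UMIs in NASH and in control. A count of 0 in 39520 NASH UMIs has an exact Poisson interval up to 93.3 CPM. Levels of Il17a, Il4, Il5 and Il13 below that could have been missed in NASH.

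Cell cycle genes were lower in NASH, by their median, under each alternative run that kept the Mki67 cells. Of 12 measured, 10 were at least 1.5 times lower and 1 higher, with a median log2 ratio of -1.83. Mki67 had 1 UMI in NASH and 79 in control, 34 of them in 1 cell. Pclaf, a partner of the replication clamp PCNA, had 0 UMIs in NASH and 65 in control. With the NASH count set at the floor of 3 UMIs it was 5.79-fold lower in NASH, counting error not included. Hmgb2, a chromatin protein of dividing cells, had 22 UMIs in 14 NASH cells and 372 in 53 control cells (-2.14, -2.87 to -1.56), and -0.82 without the cells set apart. Without the 1 NASH and 11 control cells with Mki67, which is itself on the list, the median over the 3 genes still measured was 0.10.

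Of the T cell receptor signalling genes, 2 of 18 were at least 1.5 times higher in NASH and 4 lower, with a median log2 ratio of -0.11. Cd247, the zeta chain that carries most signalling motifs of the receptor (chr1:165788681-165877277 in GRCm38), stood out with a lowest, median and highest value of 0, 0 and 2 UMIs per cell in NASH and 0, 0 and 5 in control. It had a UMI in 3 of 27 NASH members (11.1%, 2.35 to 29.2%) and in 36 of 76 control members (47.4%, 35.8 to 59.2%). The levels were 101 CPM in NASH (27.6 to 259) and 433 CPM in control (333 to 552), a log2 ratio of -1.94 (-4.01 to -0.67) that was -1.91 without the cells set apart. At 500 UMIs per cell the shares were 7.41% in NASH and 21.1% in control, with intervals that overlapped. Of B cells 0% in NASH and 0.293% in control had a Cd247 UMI.

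The other chains and kinases of the pathway were more even. Grap2, an adaptor that links LAT to SLP-76, had 9 UMIs in 9 NASH cells and 71 in 38 control cells (-1.01, -2.26 to -0.07). Lck, the coreceptor kinase, had 54 UMIs in NASH and 180 in control (0.18, -0.30 to 0.61), and the adaptor Lat had 35 in NASH and 119 in control (0.15, -0.45 to 0.69). The intervals of Lcp2 (0.66), Fyn (-0.52), Cd28 (-0.35), Cd5 (0.40), Cd6 (0.42) and Cd2 (-0.14) included equal levels. Cd247 and Grap2 were thus the genes of this list that were lower in NASH beyond counting error.

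Of the genes that respond to T cell receptor signals several were higher in NASH. Of 10 measured, 5 were at least 1.5 times higher and none lower, with median log2 ratios of 0.58 in all members and 0.59 without the cells set apart. The median was -0.01 when all CD4 T cells were taken whatever their Cxcr6, and -0.13 over the 4 genes with 100 UMIs or more. Dusp2, a phosphatase induced by activation, had 0, 2 and 11 UMIs per cell as the lowest, median and highest value in NASH and 0, 1 and 8 in control. Its level was 1898 CPM in NASH (1493 to 2379) and 845 CPM in control (703 to 1007), a log2 ratio of 1.17 (0.73 to 1.59). Cd69, the early activation antigen, had 21 UMIs in 12 NASH cells and 37 in 17 control cells (1.10, 0.24 to 1.90). Nfkbid had 15 in NASH and 19 in control (1.57, 0.48 to 2.62), and Nr4a1 27 in NASH and 62 in control (0.72, -0.00 to 1.38). Pim1 was the gene of this list whose interval lay below equal levels, with 39 UMIs in NASH and 213 in control (-0.53, -1.08 to -0.05).

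Enzymatic digestion of tissue induces immediate early and heat shock genes, and livers of both diets were digested. Of 20 such genes measured, 5 were at least 1.5 times higher in NASH and none lower, with a median log2 ratio of 0.22, and 0.04 without the cells set apart. Btg2, an antiproliferative early response gene, had 52 UMIs in 22 NASH cells and 90 in 49 control cells (1.12, 0.59 to 1.62), and 0.91 without the cells set apart. Fos had 60 UMIs in 16 NASH cells and 149 in 48 control cells (0.60, 0.13 to 1.03), and 0.03 without the cells set apart. Jund was at -0.08 (-0.41 to 0.22). The heat shock genes Hspa1b (0.66), Dnaja1 (0.94) and Hspa8 (0.41) had intervals above equal levels, but Hspa1b was at -0.31 with 2 or more Cd4 UMIs. Their part in the activation genes was not tested.

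The MHC class I genes with most UMIs were higher in NASH. The list had 1452 UMIs in NASH and 3817 in control, 36741 CPM in NASH and 25798 CPM in control, and of 16 measured genes 4 were at least 1.5 times higher and 1 lower, with a median log2 ratio of 0.45. Without the cells set apart, 2 of 15 were higher and 3 lower, with a median of 0.17. B2m, the invariant light chain of class I molecules (chr2:122147686-122153083 in GRCm38), had a lowest, median and highest value of 6, 15 and 65 UMIs per cell in NASH and 1, 11 and 65 in control. Its level was 13133 CPM in NASH (12027 to 14313) and 7658 CPM in control (7218 to 8117), a log2 ratio of 0.78 (0.63 to 0.93) and of 0.60 (0.42 to 0.78) without the cells set apart. Cells of the libraries overlapped, although the NASH median was the higher. H2-K1, a class I heavy chain, had 7566 CPM in NASH and 4873 CPM in control (0.64, 0.44 to 0.83), and H2-D1, another heavy chain, 8097 CPM in NASH and 5961 CPM in control (0.44, 0.25 to 0.63). Without the cells set apart H2-K1 was at 0.48 and H2-D1 at 0.22. The heavy chain genes are near-identical in parts, so their separate levels are uncertain. B2m was higher in NASH in all other kept cells as well, with a log2 ratio of 0.44, and the difference from the members was not tested.

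The regions before these starts are shown because these genes carried the higher class I level in NASH. RefSeq (GRCm38.p6) lists 250 bases before each start, printed 5′ to 3′ on the gene's strand, with matches to TTTCNNTT or its reverse complement AANNGAAA, the core of the interferon-stimulated response element, in capitals. H2-K1 has a pair of listed starts, of which 1 is shown.
B2m, chr2:122147437-122147686, + strand: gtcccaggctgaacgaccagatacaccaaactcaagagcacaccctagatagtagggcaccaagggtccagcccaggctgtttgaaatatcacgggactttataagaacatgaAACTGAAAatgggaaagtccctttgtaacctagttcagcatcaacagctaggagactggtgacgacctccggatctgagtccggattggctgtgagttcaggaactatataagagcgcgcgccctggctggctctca
H2-K1, chr17:34000348-34000597, - strand: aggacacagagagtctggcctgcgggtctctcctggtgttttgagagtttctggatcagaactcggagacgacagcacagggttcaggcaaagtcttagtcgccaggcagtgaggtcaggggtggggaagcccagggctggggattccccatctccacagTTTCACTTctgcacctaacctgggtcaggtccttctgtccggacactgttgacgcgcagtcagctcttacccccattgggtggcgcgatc
H2-D1, chr17:35262844-35263093, + strand: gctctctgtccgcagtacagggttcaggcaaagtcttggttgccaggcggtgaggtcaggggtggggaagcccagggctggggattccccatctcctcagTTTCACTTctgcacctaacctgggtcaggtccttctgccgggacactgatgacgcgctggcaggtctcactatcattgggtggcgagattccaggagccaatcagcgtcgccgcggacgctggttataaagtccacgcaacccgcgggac
Each region held 1 match, beginning 137 bases before the start of B2m, 90 before that of H2-K1 and 150 before that of H2-D1. Of 32851 RefSeq promoters of this length, 6999 (21.3%) held a match on either strand, and a match describes the letters only.

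Of the interferon-stimulated genes, 7 of 17 were at least 1.5 times higher in NASH and 2 lower, with a median log2 ratio of 0.36. Without the cells set apart 2 of 12 were higher and 1 lower, with a median of 0.06. Ly6e, an interferon-induced surface protein, had 192 UMIs in 26 NASH cells and 472 in 71 control cells (0.61, 0.36 to 0.85), and 0.40 without the cells set apart. Ifi203, a nuclear sensor of the p200 family, had 51 in 20 NASH cells and 99 in 53 control cells (0.95, 0.43 to 1.45), and 0.70 without them. Iigp1, an immunity-related GTPase, had 22 UMIs in NASH, of which 12 lay in 1 cell, and 23 in control. Its log2 ratio of 1.84 was 0.30 without the cells set apart. Ifi27l2a went the other way with 16 UMIs in NASH and 134 in control (-1.12, -2.01 to -0.41), and -0.58 without them. The list held genes on both sides of equal levels.

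**Figure D2:**
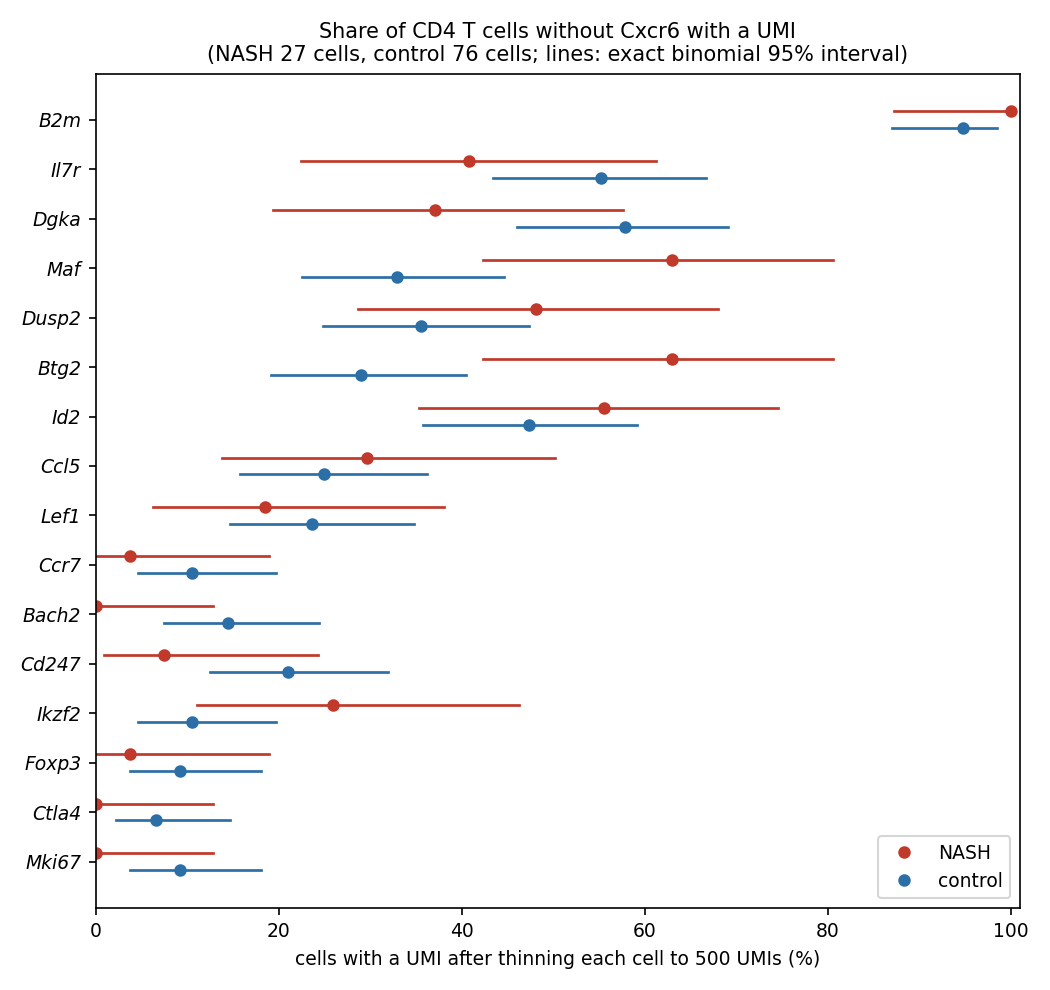
Points give the share of CD4 T cells without Cxcr6 with at least 1 UMI of a gene after each cell was thinned to 500 UMIs, in percent, for 27 NASH and 76 control cells, and lines the exact binomial interval. Maf stands at 63.0% in NASH and 32.9% in control, Il7r at 40.7% and 55.3%, and Cd247 at 7.41% and 21.1%, in the same order. For each of these genes the intervals of the libraries overlap.

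MCD feeding withholds methionine and choline, and of 4 measured genes of that metabolism 2 were at least 1.5 times higher in NASH and 1 lower, with a median log2 ratio of 0.72. Mat2a, which makes S-adenosylmethionine from methionine outside hepatocytes, had 16 UMIs in 11 NASH cells and 28 in 21 control cells (1.12, 0.11 to 2.03), and 1.27 without the cells set apart. Odc1, the first enzyme of polyamine synthesis, had 30 UMIs in 10 NASH cells and 41 in 26 control cells (1.46, 0.72 to 2.17), and 1.35 without them. With genes of 10 UMIs or more the list's median was -0.22, a change of direction. Dnmt1, the maintenance DNA methyltransferase and a user of S-adenosylmethionine, had 4 in NASH and 44 in control (-1.40, -3.49 to -0.10), with 12 of the control UMIs in 1 cell. Its log2 ratio was -0.50 without the cells set apart, under 1.5 times.

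Of 6 amino acid starvation genes measured, 1 was at least 1.5 times higher and 1 lower in NASH, with a median log2 ratio of 0.04. Ddit4, an mTOR inhibitor induced by stress, had 23 UMIs in 14 NASH cells and 42 in 22 control cells (1.05, and 1.26 without the cells set apart). Psat1, an enzyme of serine synthesis, had 0 UMIs in NASH and 27 in 11 control cells. With the NASH count set at the floor of 3 UMIs it was 2.40-fold lower in NASH, counting error not included. Atf4, the factor that drives this programme, was at -0.24, with an interval that included equal levels.

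Oxidative phosphorylation genes had 2 of 35 at least 1.5 times higher in NASH and 10 lower, with a median log2 ratio of -0.38, and 4 of 24 higher and 4 lower with a median of 0.05 without the cells set apart. Glycolysis genes had 1 of 8 higher and 3 lower, with a median of -0.23, and 0.01 without them. Pgk1 had 7 UMIs in NASH and 82 in control (-1.55, -3.00 to -0.54), Gpi1 6 in NASH and 64 in control (-1.41, -3.01 to -0.31) and Gapdh 44 in NASH and 254 in control (-0.61, -1.12 to -0.16). Without the cells set apart Gpi1 was at -1.22, whereas Gapdh was at -0.15 with an interval that included equal levels. Cholesterol synthesis and lipid uptake genes had 0 of 4 higher and 1 lower, with a median of -0.26. Translation factors had 1 of 18 higher and 1 lower, with a median of -0.14, and Eif3e, a subunit of initiation factor 3, had 22 UMIs in NASH and 138 in control (-0.72, -1.46 to -0.09).

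Receptors for homing and cytokines were mostly even. Of 11 chemokine receptor and homing genes 2 were at least 1.5 times higher in NASH and 2 lower, with a median log2 ratio of 0.12. Cxcr4, the receptor that holds cells in bone marrow and inflamed tissue, had 25 UMIs in 13 NASH cells and 49 in 28 control cells (0.95, 0.18 to 1.66), and 0.92 without the cells set apart. Itgal (0.50) and Itgb2 (0.42), the chains of the integrin LFA-1, had intervals that included equal levels. Cytokine receptors and Janus kinases had 2 of 11 higher and 2 lower, with a median of 0.09, and the inhibitory receptors 0 of 4 higher and 1 lower, with a median of 0.08. The 3 measured cytokine and ligand genes, among them Ltb (0.62, -0.02 to 1.21), had a median of 0.62 that was -0.30 without the cells set apart.

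The GIMAP GTPases, which lymphocytes need for survival, had 0 of 8 genes past 1.5 times in either direction, with a median log2 ratio of 0.24. Gimap4 had 83 UMIs in NASH and 243 in control (0.36, -0.02 to 0.72) and Gimap6 37 in NASH and 138 in control (0.02, -0.56 to 0.54). Apoptosis and survival genes had 0 of 6 higher and 2 lower, with a median of -0.37, Bcl2 being at -0.23 (-1.22 to 0.59). Of the actin cytoskeleton genes 0 of 17 were higher and 1 lower, with a median of -0.07. Pfn1, which encodes profilin, had 116 UMIs in 26 NASH cells and 305 in 56 control cells (0.51, 0.19 to 0.82), and Lsp1 had 36 in 17 NASH cells and 233 in 59 control cells (-0.77, -1.34 to -0.28). Actb was level at -0.01 (-0.12 to 0.10), as was Malat1 at -0.01 (-0.28 to 0.24).

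**Figure D3:**
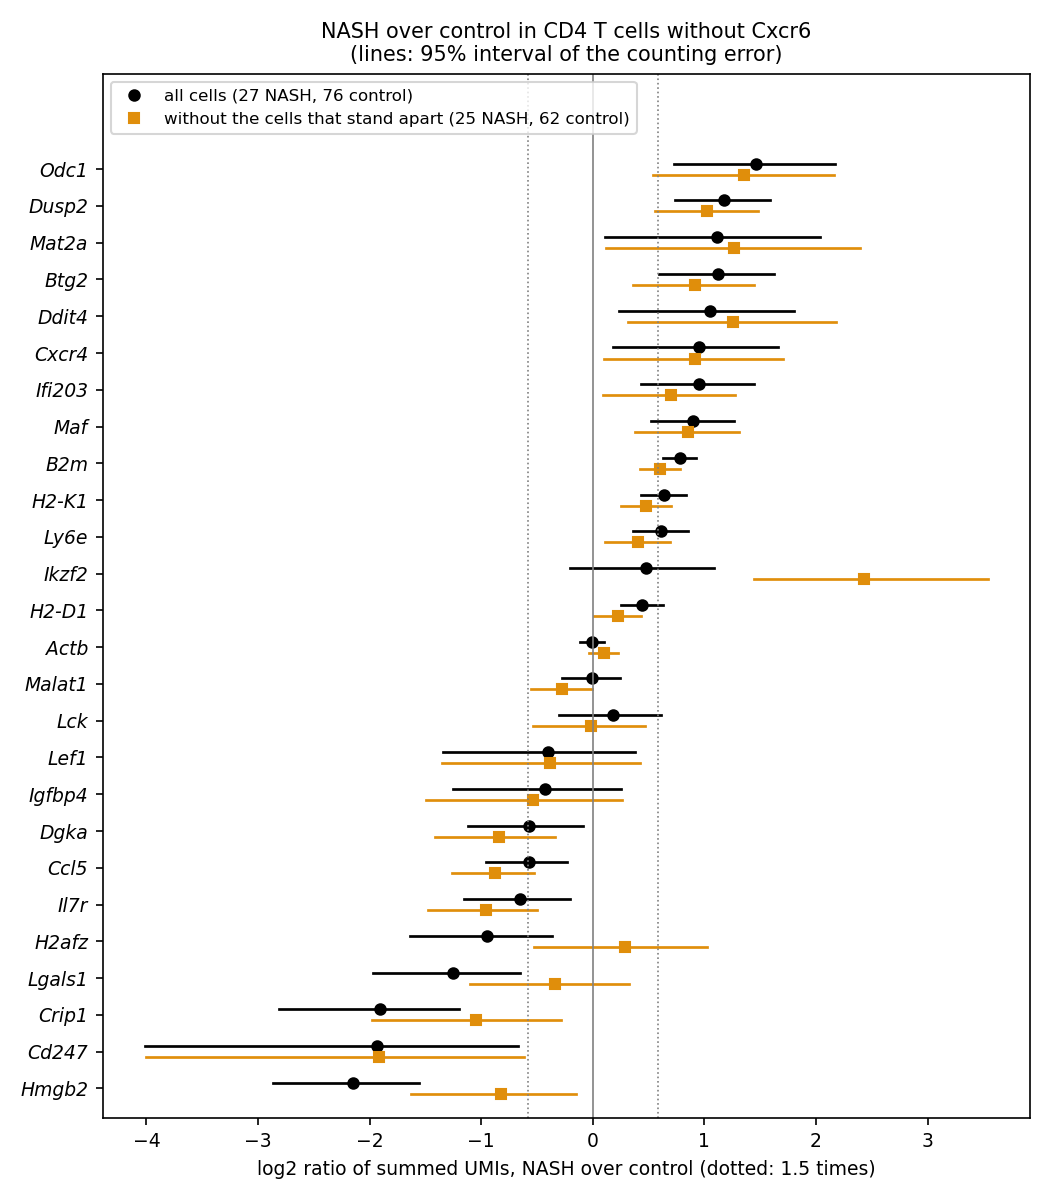
Points give the log2 ratio of scaled UMI sums, NASH over control, with lines for its counting interval, for all members (27 NASH and 76 control cells) and without the cells that stood apart (25 NASH and 62 control cells), and dotted lines mark 1.5 times. Cd247 lies near -1.9 and Odc1 near 1.4 in both sets. Hmgb2 is at -2.14 in all members and -0.82 without those cells, and Ikzf2 at 0.47 and 2.43. The smaller set lacks 6 of the 10 control cells with Foxp3 and keeps both NASH ones.

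Members were also split by a Foxp3, a Lef1 or Ccr7, and a Ccl5 UMI. Of these, the Ccl5 UMI and the Lef1 or Ccr7 UMI marked partly separate cells. Lef1 or Ccr7 was found in 9 of 27 NASH members (33.3%, 16.5 to 54.0%) and 36 of 76 control members (47.4%, 35.8 to 59.2%), and Ccl5 in 8 of 27 NASH members (29.6%, 13.8 to 50.2%) and 24 of 76 control members (31.6%, 21.4 to 43.3%). A UMI of none of the 4 genes was found in 9 NASH and 18 control members. Ccl5 and Lef1 or Ccr7 were found together in 0 NASH and 5 control cells. Of the cells with Foxp3, 1 of 2 in NASH and 5 of 10 in control also had Lef1 or Ccr7. Foxp3 thus did not mark cells separate from those with Lef1 or Ccr7. Among B cells 1.03% in NASH and 3.07% in control had a Ccl5 UMI, below the members' shares. B cells use Ccr7 and are no background for that gene. The splits describe cells of the same libraries, chosen with results of these data known, and were not tested.

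Control cells with Foxp3 (10 cells) had the regulatory T cell genes that the split did not use. Against the 66 control cells without Foxp3, they held 70 against 9 UMIs of Ikzf2 (log2 ratio 4.09, 3.15 to 5.35), 20 against 3 of Il2ra (3.75, 2.18 to 6.33) and 27 against 11 of Ctla4 (2.46, 1.44 to 3.66). Klrg1, a receptor of effector regulatory T cells, had 26 UMIs in 3 cells with Foxp3 and 0 in cells without. Izumo1r (1.56) and Nrp1 (2.15) were higher too. Igfbp4 (0 against 98 UMIs), Il7r (10 against 257) and Ccl5 (11 against 421) were lower, and so was Cd40lg (0 against 15). Mki67 had 60 UMIs with Foxp3 and 19 without. In NASH the 2 cells with Foxp3 had 4994 CPM of Ikzf2 from 12 UMIs, against 458 CPM from 17 UMIs in the 25 others (3.46, 2.25 to 4.60).

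Cells with Lef1 or Ccr7 carried genes of naive cells in both libraries. Actn1 was higher in cells with either gene, with 17 UMIs against 2 in NASH (3.87, 2.08 to 7.31) and 52 against 15 in control (1.54, 0.72 to 2.51). Igfbp4 was higher too, with 15 against 4 in NASH (2.85, 1.32 to 5.02) and 66 against 32 in control (0.81, 0.19 to 1.48). Id2 was lower, with 7 against 84 in NASH and 71 against 134 in control. Nkg7 had 0 against 23 UMIs in NASH and 11 against 82 in control. H2-D1 was lower in cells with either gene, by log2 ratios of -0.84 in NASH and -0.51 in control, and B2m at -0.57 in NASH and -0.17 in control. Il7r differed in direction, with 30 against 15 UMIs in NASH (2.04, 1.13 to 3.07) and 125 against 142 in control (-0.41, -0.77 to -0.05).

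Cells with Ccl5 (8 in NASH and 24 in control) had genes of cytotoxic and effector cells. Nkg7 had 23 UMIs with Ccl5 and 0 without in NASH, and 92 with and 1 without in control. Id2 was higher at 61 against 30 UMIs in NASH (2.47, 1.83 to 3.17) and 123 against 82 in control (1.66, 1.25 to 2.09). Ifng had 4 against 1 in NASH and 19 against 3 in control. Bhlhe40 had a UMI in all 8 NASH cells with Ccl5 and in 2 of the 19 without, and in control in 7 of 24 with and 2 of 52 without. Itga1, the integrin chain of tissue-resident T cells, had a UMI in 6 of 8 NASH cells with Ccl5 and 0 of 19 without, while in control it was in 2 of 24 and 4 of 52. Lef1 had 0 against 15 UMIs in NASH and 4 against 72 in control. Maf did not differ beyond counting error (-0.49 in NASH and -0.02 in control). This split was made after the values were seen.

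**Figure D4:**
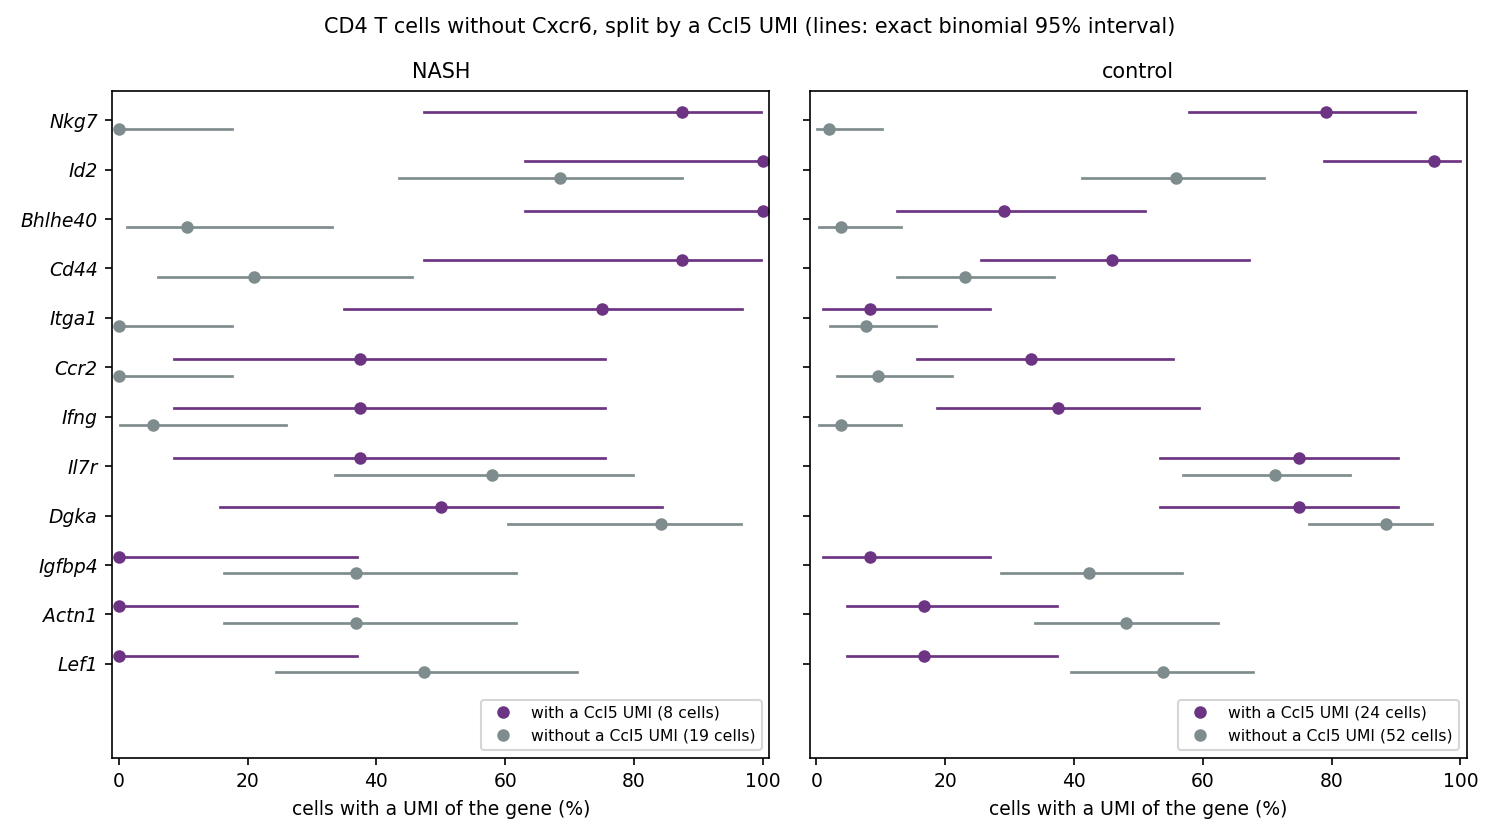
Points give the share of cells with a UMI of each gene, in percent, among CD4 T cells without Cxcr6 that had a Ccl5 UMI (8 NASH and 24 control cells) and that had none (19 NASH and 52 control cells), with exact binomial intervals. Nkg7, Bhlhe40 and Id2 lie to the right in cells with Ccl5 in both libraries, Lef1, Actn1 and Igfbp4 to the left, and Itga1 separates the cells in NASH and not in control.

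Beside the other T cells, the CD4 T cells without Cxcr6 were compared by their helper and cytotoxic genes. Maf had 2379 CPM in NASH and 1277 CPM in control in these cells, 184 CPM in NASH (124 to 262) and 756 CPM in control (645 to 880) in CD8 T cells without Cxcr6, and 1283 CPM in NASH and 1026 CPM in control in T cells with Cxcr6 (219 NASH and 326 control cells). Its log2 ratio was 0.90 in the CD4 cells, -2.02 in the CD8 cells and 0.32 in the cells with Cxcr6. Maf was thus higher in NASH in the CD4 cells and lower in NASH in the CD8 cells, and this difference was not tested. The CD8 cells were not cleared of cells of other types. Their endothelial list summed to 2614 CPM in NASH and 6691 CPM in control, and their B cell and plasma cell list to 6343 and 2281 CPM. The part of this RNA in the difference was not tested.

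The cytotoxic genes Ccl5 and Nkg7 were lower in the CD4 cells. Ccl5 had 1948 CPM in NASH and 2920 CPM in control, against 9557 and 12988 CPM in the CD8 cells and 8267 and 5844 CPM in the cells with Cxcr6, in the same order of diets. Nkg7 had 582 CPM in NASH and 629 CPM in control, against 1500 and 2070 CPM in the CD8 cells. Izumo1r had 481 CPM in NASH and 372 CPM in control, against 18.4 and 82.4 CPM in the CD8 cells and 98.5 and 220 CPM in those with Cxcr6. Cd5, a brake on the receptor, had 734 CPM in NASH and 561 CPM in control, against 190 and 183 CPM in the CD8 cells. Il7r was close to the CD8 cells, which had 1329 CPM in NASH and 1836 CPM in control. The level of Id2 was highest in the cells with Cxcr6, at 4557 CPM in NASH and 4396 CPM in control, against 2303 and 1386 CPM in the CD4 cells. These levels compare cells of the same libraries and were not tested.

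**Figure D5:**
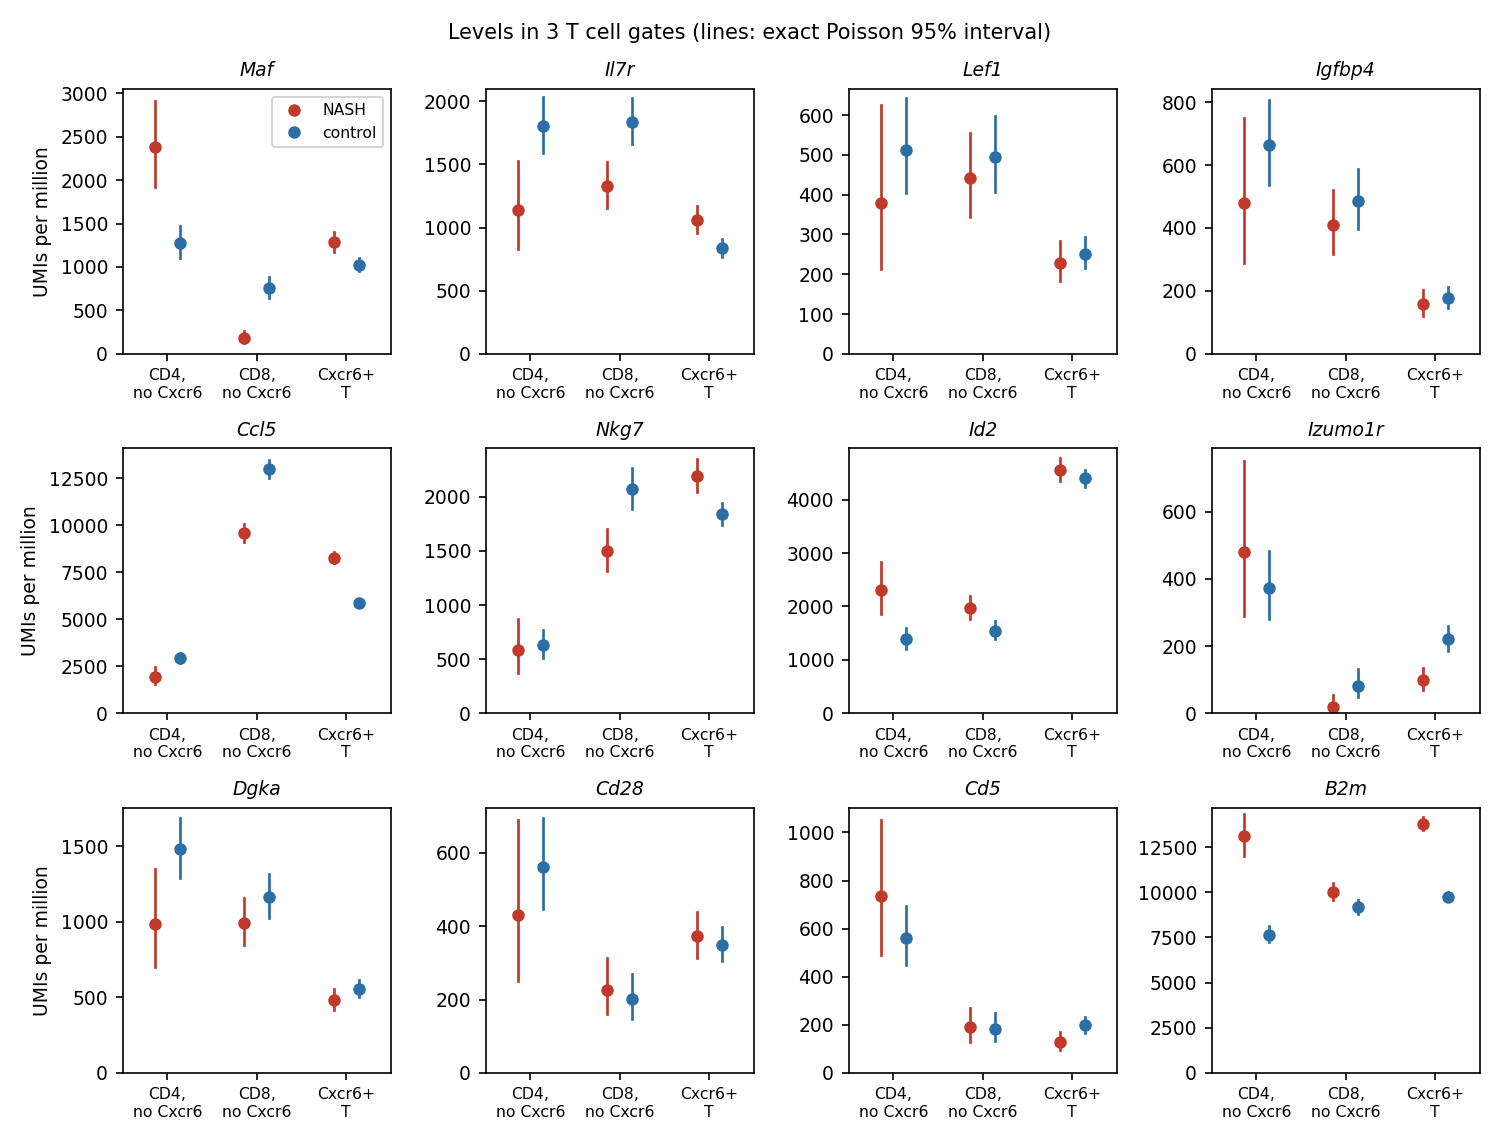
Each panel gives the level of 1 gene in CPM, with its exact Poisson interval, in CD4 T cells without Cxcr6, CD8 T cells without Cxcr6 and T cells with Cxcr6, NASH to the left of control. Maf is at 2379 CPM in NASH and 1277 CPM in control in the CD4 cells and at 184 and 756 CPM in the CD8 cells, and Ccl5 is lowest in the CD4 cells.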

How the data were processed

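UMI counts per cell and gene were read from 1 table per library as the authors deposited them, with whole numbers and no normalization. Cells were captured on BD Rhapsody, and the submitters' processing notes name the GRCm38 build. The NASH table lacks a header, and the gene names of the control table were applied to it in the same column order. Levels of both libraries in windows of 41 columns correlated at 0.961 to 0.991 in this order and at 0.464 or less when shifted by 1 column, for the genes checked. The 16383 columns end at Rad54l2, and 12 bear dates for names. Cells with at least 500 UMIs and 200 genes were kept, while the study's limit on mitochondrial UMIs was not applied because no column name begins with mt-. All columns counted in the UMI totals, but the 12 with dates for names and the genes of the rule were left out of the gene ratios.

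UMIs were summed over the members of each library and scaled to a total of 1000000 (CPM). Ratios had 0.5 UMI added to each sum and an exact binomial interval, levels an exact Poisson interval and shares a Clopper-Pearson interval, all at 95% and for counting error only. UMIs per cell were thinned to 500 or 1000 for shares. No count model or test between diets was run, since each diet had 1 library. Genes with 30 UMIs or more were compared, and a floor of 3 UMIs per library was used for genes at 0. Folds by this floor do not include counting error. Scrublet in scanpy 1.11.5 marked 0.0809% of NASH and 1.24% of control cells as doublets, 0 and 1 of them members, and no cell was removed. It marked under 0.5% in NASH, so it did not work there. Other tools were Python 3.11.15, NumPy 2.4.6, SciPy 1.17.1, pandas 2.3.3 and matplotlib 3.10.9. The scripts were tested on simulated data.

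Named genes were, among genes whose counting interval excluded equal levels, the 12 highest and 12 lowest ratios, up to 4 genes of each list with the largest absolute ratio, defining genes of lists, the markers and the 10 genes of highest CPM. Not every such gene is described. Others, among them Maf, Dgka, Id2, Hmgb2, Fos, Lck and Itga1, were named after their values were seen. The cells, lists and rules were chosen with earlier results of these data known, and the cells set apart were chosen after their values were seen. Alternatives were deeper cells, stricter gates, all CD4 cells, Scrublet-marked cells left out, another scaling, equal weight per cell, other minimum counts and pseudocounts, and leaving out cells set apart. Positions are those of GENCODE and promoter sequences those of RefSeq, both on GRCm38.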

Additional observations from a re-analysis of the deposited data

Results flagged for a closer look

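Maf was higher in NASH in CD4 T cells without Cxcr6 (log2 ratio 0.90, and 0.85 without the cells set apart) and lower in NASH in CD8 T cells without Cxcr6 (-2.02), with counting intervals on opposite sides of equal levels. Cenpe, a kinetochore motor, had 0 UMIs in 27 NASH and 34 UMIs in 3 of 76 control CD4 cells (log2 ratio -4.20, a fitted value that depends on the 0.5 UMI added) and was higher in NASH in the CD8 cells (1.26). Cenpe had 0 UMIs in the CD4 cells of both libraries without the cells set apart, so all of its CD4 UMIs lay in those cells. Maf and Cenpe were not the only genes at 1.5 times or more with intervals on opposite sides. Calm2, Cd81, Lamp2 and Lgals3bp were also higher in NASH in the CD4 cells and lower in the CD8 cells. Hspa4 was lower in the CD4 cells and higher in the CD8 cells. Without the cells set apart, the CD4 log2 ratios were 0.99 for Calm2, 1.45 for Lamp2 and -1.35 for Hspa4. Those of Cd81 (0.16) and Lgals3bp (0.41) were then under 1.5 times. No cells were set apart from the CD8 cells, whose endothelial list was at 2614 CPM in NASH and 6691 CPM in control. None of these differences between CD4 and CD8 cells was tested, since each diet had 1 library.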

How the results depend on the processing

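No paired analysis was possible because each diet had 1 library, and leaving out a replicate was not possible for the same reason. Members were 0.296% of NASH and 0.879% of control cells with 2 or more Cd4 UMIs, 1.33% of control cells with 2 or more CD3 UMIs, and 1.89% of NASH and 3.75% of control cells with all CD4 cells taken. The counts of 235 genes higher and 239 lower in NASH, of 1394 measured, moved with the number measured. They were 138 and 146 of 912 without cells with Clec4f or Cd5l, 315 and 386 of 2885 with all CD4 cells, 827 and 925 of 3604 at a minimum of 10 UMIs, 33 and 32 of 309 at 100, 137 and 142 of 971 without the Mki67 cells, and 126 and 114 of 863 without those and the cells of other types. Median-of-ratios scaling gave 288 higher and 201 lower and moved the median log2 ratio from -0.03 to 0.07.

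Among named genes and lists past 1.5 times, log2 ratios that changed sign were those of Il7r (0.78), Klf3 (0.60), Hspa1b (-0.31) and Cst3 (-0.18) with 2 or more Cd4 UMIs. With 2 or more CD3 UMIs Ctsc was at -0.47, and without Clec4f or Cd5l C1qb was at -0.31, Ctsc at -0.29 and the cytokine and ligand list at -0.18. With all CD4 cells Nr4a1 was at -0.040 and Fos at -0.021, and at a minimum of 10 UMIs the methionine and choline list was at -0.22. Ctsc was at -0.16 without the cells of other types and at -0.038 without the deepest cell of each library. Without the Mki67 cells Ctla4 was at 0.38, H2afz at 0.15, the ligand list at -0.31 and the cell cycle list at 0.10. Without both, Ctla4 was at 0.40, Parp14 at -0.13, H2afz at 0.29, Ctsc at -0.13, the ligand list at -0.30 and the cell cycle list at 0.12. Genes and lists under 1.5 times changed sign as well, among them Dgka (0.43), Lef1 (0.40), Klf2 (1.19), Ikzf2 (-0.24) and the naive and central memory list (0.51) with 2 or more Cd4 UMIs, and Ccl5 (0.63) with all CD4 cells. The cause was not tested. The settings that leave out cells of other types, Mki67 cells, both or the deepest cell were chosen after seeing the data. With 39520 UMIs in NASH, a gene of 30 UMIs in both libraries has few NASH UMIs, and this depth limits every NASH value.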
